A study of Mus musculus with 6 samples.

Results

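The chemokine ligands are 36 of the 33276 genes in a read-count table of fibroadipogenic progenitors (FAPs). The 36 are every CC and CXC ligand in the table named Ccl or Cxcl with a number, together with Cx3cl1 and without Cxcl12. FAPs are stromal progenitors of skeletal muscle, known to form fibroblasts and fat cells. The series has 3 libraries of circulating FAPs, taken from peripheral blood, and 3 libraries of muscle FAPs. All 6 came from mice with middle cerebral artery occlusion (MCAO), a model of ischaemic stroke. Mice without MCAO were not analysed here. Age, genetic background, the isolation of the cells and any pooling of animals are not given in the sources used here. Whether the libraries of a group are separate mice is not stated, and each p-value therefore measures only how these samples spread, possibly for technical reasons.

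Chemokines are small secreted proteins that bind receptors on leukocytes and guide their migration along a gradient. Inflammatory ligands are made on demand, largely under NF-kappaB or interferon control, while homeostatic ligands place cells in resting tissue. In injured muscle, FAPs and other stromal cells are known sources of ligands for neutrophils, monocytes and eosinophils.

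Libraries held 5522193 to 13813329 counts in circulating FAPs and 17532558 to 23424039 in muscle FAPs, and 18S ribosomal RNA took 42.9% to 60.1% and 27.8% to 32.3% of them. The FAP markers Pdgfra, Ly6a, Cd34, Dcn, Col1a1, Col3a1 and Pdgfrb were present in all libraries. Levels are given as CPM, counts per 1000000 of a library size scaled by the trimmed mean of M values (TMM), and 3 values of a group follow replicates 1, 2 and 3. The 7 FAP markers summed to 14538, 9165 and 10449 CPM in the circulating libraries, against 29173, 23112 and 27716 CPM in the muscle libraries. Dcn, Col3a1 and Col1a1 made up most of each sum, and Ly6a and Cd34 overlapped between the groups. None of the 7 was called by edgeR (0.109% of tested genes). At an unadjusted p under 0.05 there were 5 lower (9.64% of tested genes) and none higher (9.71%). DESeq2 called 4 lower, against 10.3% of all genes. The pan-leukocyte gene Ptprc was at 8.98 to 13.5 CPM in circulating and 4.64 to 7.89 CPM in muscle libraries. The 8 monocyte and macrophage markers were detected in every library, none at 0, and summed to 42.0, 126 and 80.8 CPM in the circulating libraries, against 9.98, 13.3 and 26.3 CPM in the muscle libraries. The 6 neutrophil markers, none at 0 in any library, summed to 80.4, 15.2 and 70.2 CPM in the circulating libraries, against 7.05, 4.98 and 10.4 CPM in the muscle libraries. Single genes made up most of the larger sums: S100a9 at 69.8 CPM in circulating replicate 1 and S100a8 at 61.4 CPM in circulating replicate 3. S100a9 and Csf3r were higher in every circulating library, while S100a8, Ly6g, Retnlg and Mmp8 overlapped between the groups. Receptor genes that are silent outside sensory tissue, which measure stray reads, had a median of 0.408 to 0.476 CPM per kilobase of exon in circulating and 0.211 to 0.263 in muscle libraries. In such bulk counts, fewer expressing cells and less RNA per cell cannot be told apart.

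Together the ligands were less abundant in circulating FAPs, at 2395, 1469 and 1128 CPM in the circulating libraries, against 4946, 3868 and 4372 CPM in the muscle libraries. Each circulating sum lay below each muscle sum, and so did the unscaled shares, at 0.238%, 0.200% and 0.0968% of all counts in the circulating libraries, against 0.426%, 0.435% and 0.382% in the muscle libraries. The sum of FAP markers also lay lower in every circulating library and the 18S share higher, and their part in this difference was not tested. Of the 36 ligands, 25 had enough reads to be tested and 1, Cxcl14, passed an adjusted p of 0.05 in edgeR's quasi-likelihood test, against 0.104% of 20248 tested genes called lower (0.109% in either direction). None was called higher, against 0.00494% of tested genes. At an unadjusted p under 0.05 there were 8 lower ligands (9.64% of tested genes) and 4 higher ones (9.71%).

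DESeq2, a count test that estimates dispersion differently, called 7 of the 19 ligands with an adjusted p lower and 1 higher, against 10.3% and 1.16% of all genes. The 7 were Cxcl14, Cxcl1, Cxcl2, Cxcl5, Cxcl9, Cxcl16 and Ccl2, and the other was Ccl6. In 7 of the 25 tested ligands every circulating library lay below every muscle library, against 11.4% of tested genes: Cxcl14, Cxcl1, Cxcl2, Cxcl9, Cxcl16, Ccl2 and Ccl7. In 4 every circulating library lay above, against 16.2% of tested genes: Ccl6, Ccl22, Ccl28 and Cxcl15. With scaling on abundant genes (at least 20 CPM), which moved the median log2 fold change of all genes by 0.70, 4 ligands lay below and 9 above, against 4.25% and 30.9% of tested genes. Upper quartile scaling gave counts of 4 and 9, against 4.49% and 30.6%. With scaling on abundant genes edgeR called no ligand lower or higher (0.0198% and 0.0148% of tested genes).

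The 25 ligands had a median log2 fold change, circulating minus muscle, of -0.50, where all tested genes had 0.15. With scaling on abundant genes the medians were 0.10 and 0.85. Fold changes depended on abundance in the whole table: 4736 genes of at least 20 CPM had a median of -0.65, and the 10 ligands at that level had -1.59. A negative fold change was found for 13 of the 25 ligands, against 45.5% of tested genes. Ccl27a and Ccl27b hold the same reads, and both count among the 25 and the 13. The median of the 25 was the value of Cxcl10 under both scalings, and the next value up was that of Ccl9 (0.29 and 0.92). Counting the pair once would therefore raise both medians of the ligands. The median of the ligands was -0.10, -0.45 and 0.26 with circulating replicate 1, 2 or 3 left out, and -0.17, 0.64 and 0.03 with muscle replicate 1, 2 or 3 left out. The filter on low counts was rerun each time, so the set of tested ligands could change as well. With all libraries and no filter the median was 0.24. Its sign was thus not stable, and the parts of single libraries and of the set tested were not told apart.

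**Figure D1:**
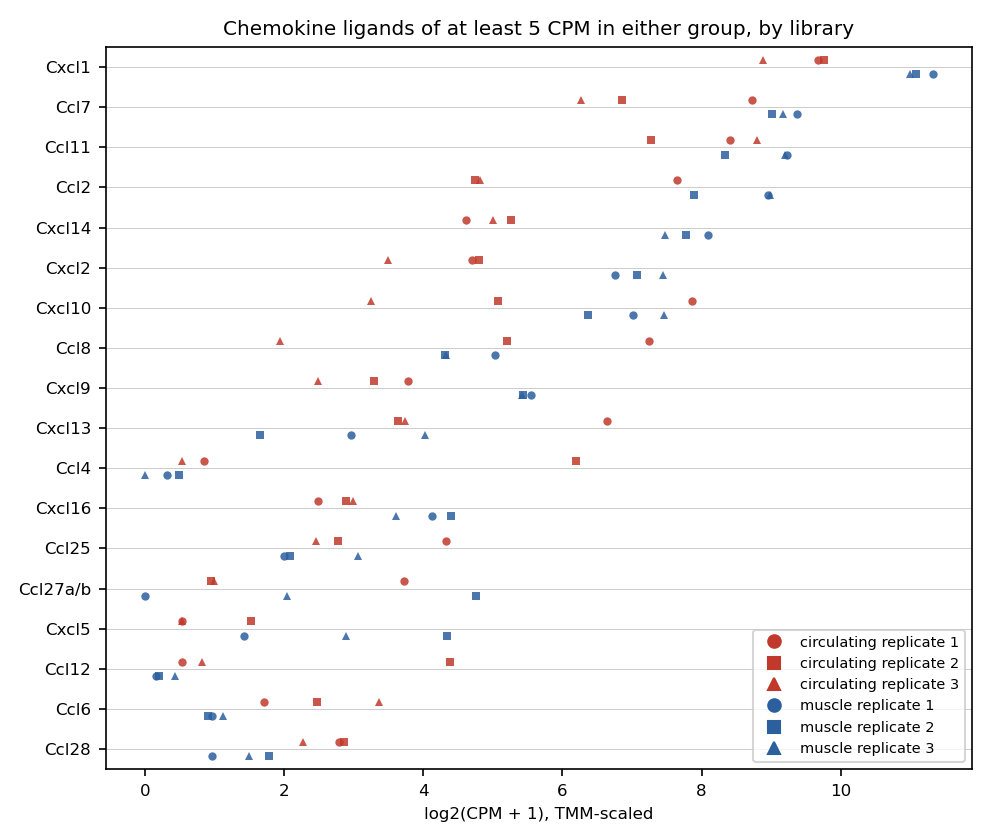
Level of the ligands of at least 5 CPM in either group, as log2(CPM + 1) on the x axis, with 1 symbol per library; circulating FAPs are red and drawn above muscle FAPs in blue, and Ccl27a and Ccl27b share a row because they hold the same counts. For Cxcl1, Ccl7, Ccl2, Cxcl14, Cxcl2, Cxcl9 and Cxcl16 all 3 circulating libraries lie left of all 3 muscle libraries.

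Cxcl14, a ligand that fibroblasts and epithelia make at rest, fell in circulating FAPs. It was at 23.4, 37.4 and 31.2 CPM in the circulating libraries, against 273, 219 and 177 CPM in the muscle libraries. The groups lay far apart, and the highest library was 1.60 times the lowest in circulating and 1.54 times in muscle FAPs. Its log2 fold change was -2.86 ± 0.44 (SE; adjusted p = 0.0496, edgeR), and with DESeq2 it was -3.03 ± 0.50 (adjusted p = 6.72e-07). The edgeR call was close to the threshold: it held in 6 of 17 alternative analyses, DESeq2 among them, with a log2 fold change between -3.11 and -2.12 throughout. Leaving out circulating replicate 2 gave adjusted p = 0.0792 in edgeR, leaving out circulating replicate 3 gave 0.144, and leaving out muscle replicates 1, 2 and 3 in turn gave 0.182, 0.158 and 0.202. Scaling on abundant genes gave -2.12 ± 0.46 (adjusted p = 0.0882, edgeR). As a share of the ligand counts of its own library, which no scaling alters, Cxcl14 held 0.978%, 2.55% and 2.76% in the circulating libraries, against 5.51%, 5.66% and 4.04% in the muscle libraries.

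Cxcl1, the mouse neutrophil attractant that signals through Cxcr2, had the highest mean level per kilobase of exon of the ligands in both groups, at 382 ± 114 CPM per kilobase in circulating and 1207 ± 141 in muscle FAPs (SD, n = 3 each). Per kilobase it was above every other ligand in all 3 muscle libraries and in circulating replicate 2, while Ccl7 was higher in circulating replicate 1 (526 against 436 CPM per kilobase) and Ccl11 in circulating replicate 3 (409 against 251). It was at 817, 863 and 471 CPM in the circulating libraries, against 2559.9, 2176 and 2052 CPM in the muscle libraries. No circulating library came near a muscle library. Its fitted log2 fold change was -1.66 ± 0.29 and missed the threshold in edgeR (adjusted p = 0.0718), while DESeq2 called it lower (adjusted p = 0.00592). In edgeR it passed with size factors of the relative log expression (RLE) method (adjusted p = 0.0471), without a filter on low counts (0.0170) and without circulating replicate 1 (0.0453). Its share of the ligand counts overlapped between the groups, at 34.1%, 58.7% and 41.7% in the circulating libraries, against 51.8%, 56.3% and 46.9% in the muscle libraries.

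Cxcl2, the neighbouring gene with the same receptor, was at 24.9, 26.9 and 10.2 CPM in the circulating libraries, against 107, 133 and 173 CPM in the muscle libraries. The lowest muscle library was thus well above the highest circulating library. On the log2 scale Cxcl2 differed by -2.74 ± 0.54 (adjusted p = 0.0909 in edgeR, 4.67e-05 in DESeq2). Cxcl5, a further neutrophil attractant, was at 0.438, 1.86 and 0.439 CPM in the circulating libraries, against 1.67, 19.3 and 6.41 CPM in the muscle libraries. The muscle values were widely spread and the groups overlapped at their edge (-3.35 ± 0.999, adjusted p = 0.171 in edgeR, 0.00554 in DESeq2). Cxcl3 and Cxcl15 lie beside Cxcl1 and Cxcl2 on chromosome 5, in the order Cxcl3, Cxcl15, Cxcl1, Cxcl2 in the GRCm38 annotation, yet stayed near the level of stray reads. Cxcl3 was at 1.46 to 2.66 CPM in circulating and 1.02 to 1.91 CPM in muscle libraries, and Cxcl15, also called lungkine, at 1.10 to 1.31 and 0.587 to 1.07 CPM.

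The promoters of 4 ligands are shown because Cxcl1 and Cxcl2 lay apart between the groups in the same way, Cxcl10 differed between libraries, and Cxcl14 was the ligand called. Each window runs from 250 bases before to 50 bases after the RefSeq start site, 5′ to 3′ on the gene's strand, in build GRCm38.p6. Windows are chr5:90890995-90891294 (plus strand), chr5:90903649-90903948 (plus), chr5:92348840-92349139 (minus) and chr13:56296502-56296801 (minus). Capitals mark matches on either strand to the NF-kappaB consensus of 10 letters, to the AP-1 motif TGANTCA or to the interferon response core GAAANNGAAA; TATAAA was also searched and is in none of the 4.
Cxcl1: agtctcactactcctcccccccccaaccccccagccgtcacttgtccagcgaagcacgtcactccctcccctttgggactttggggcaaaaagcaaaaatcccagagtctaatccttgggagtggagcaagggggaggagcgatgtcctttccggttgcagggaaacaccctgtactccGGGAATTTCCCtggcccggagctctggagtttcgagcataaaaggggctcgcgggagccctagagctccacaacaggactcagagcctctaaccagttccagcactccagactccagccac
Cxcl2: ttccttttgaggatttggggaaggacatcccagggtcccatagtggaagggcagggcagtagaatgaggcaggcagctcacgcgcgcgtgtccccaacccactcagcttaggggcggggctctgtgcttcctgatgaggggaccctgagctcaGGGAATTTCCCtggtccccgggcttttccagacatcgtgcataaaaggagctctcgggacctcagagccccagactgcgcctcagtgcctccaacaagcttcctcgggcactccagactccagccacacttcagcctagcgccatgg
Cxcl10: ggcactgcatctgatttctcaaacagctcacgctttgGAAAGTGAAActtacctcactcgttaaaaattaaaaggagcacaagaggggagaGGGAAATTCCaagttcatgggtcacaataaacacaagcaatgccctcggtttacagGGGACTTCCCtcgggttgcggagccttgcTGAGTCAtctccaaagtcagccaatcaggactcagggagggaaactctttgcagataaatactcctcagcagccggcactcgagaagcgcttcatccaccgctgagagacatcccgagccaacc
Cxcl14: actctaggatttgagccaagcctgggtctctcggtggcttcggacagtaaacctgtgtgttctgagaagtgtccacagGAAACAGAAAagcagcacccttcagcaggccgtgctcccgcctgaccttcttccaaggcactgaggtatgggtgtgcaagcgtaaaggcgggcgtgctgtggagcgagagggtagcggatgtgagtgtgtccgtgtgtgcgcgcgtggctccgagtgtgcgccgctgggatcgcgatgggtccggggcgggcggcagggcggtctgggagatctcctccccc

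Cxcl1 and Cxcl2 each held the same run GGGAATTTCCC, 2 overlapping NF-kappaB matches on opposite strands, with its last base at -61 from the start in Cxcl1 and at -87 in Cxcl2. Cxcl10 held NF-kappaB matches GGGAAATTCC and GGGACTTCCC, 1 AP-1 match and the interferon core GAAAGTGAAA. Cxcl14 held the interferon core GAAACAGAAA and no NF-kappaB match. RefSeq windows were matched for 26 of the 36 ligands. No window was matched for Ccl2, Ccl4, Ccl5, Ccl7, Ccl11, Ccl24, Ccl26, Cxcl5, Cxcl16 or Cxcl17, so their promoters were not searched. The NF-kappaB consensus was found in 6 of the 26 matched ligands (Cxcl1, Cxcl2, Cxcl3, Cxcl10, Ccl9 and Ccl20), against 4.35% of 27025 promoters. TATAAA was in 8 of 26 (14.2% of all), the AP-1 motif in 4 (7.93%) and the interferon core in 3 (3.49%). These matches describe letters and not bound sites, and Cxcl3 and Ccl20, which hold the consensus, were near the level of stray reads in these libraries.

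The monocyte attractants Ccl2 and Ccl7, ligands of Ccr2, were also lower in every circulating library, with circulating replicate 1 well above the other 2. Ccl2 was at 200.2, 25.8 and 27.1 CPM in the circulating libraries, against 495.5, 236 and 505 CPM in the muscle libraries. Circulating replicate 1 came close to muscle replicate 2. Its fitted log2 fold change was -2.29 ± 0.77 (adjusted p = 0.188 in edgeR, 0.0307 in DESeq2), and without circulating replicate 1 it was -4.03 ± 0.49 (adjusted p = 0.0231, edgeR).

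Ccl7 was at 421, 115 and 76.2 CPM in the circulating libraries, against 665, 516 and 577 CPM in the muscle libraries. Muscle libraries were within 1.29-fold of each other, and circulating libraries spread over 5.53-fold. Its log2 fold change was -1.52 ± 0.57 (adjusted p = 0.210 in edgeR, 0.0899 in DESeq2) and without circulating replicate 1 it was -2.68 ± 0.37 (adjusted p = 0.0283, edgeR). With scaling on abundant genes both fold changes stayed below 0, at -1.67 for Ccl2 and -0.90 for Ccl7. With that scaling 4 ligands lay below in every circulating library, against 7 with TMM scaling, and the 4 are not named here. Il6, another secreted product of activated fibroblasts, was likewise highest among circulating libraries in replicate 1, with 226, 53.2 and 78.7 CPM in the circulating libraries, against 456, 371 and 457 CPM in the muscle libraries (-1.84 ± 0.52, adjusted p = 0.160 in edgeR, 0.0222 in DESeq2).

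Ccl8, a further ligand of the monocyte-attracting group, varied more among circulating libraries than between the groups. It was at 151, 35.9 and 2.85 CPM in the circulating libraries, against 31.7, 18.8 and 19.1 CPM in the muscle libraries. Circulating replicate 1 was the highest of all libraries and circulating replicate 3 the lowest, a 52.9-fold range against 1.68-fold in muscle. Its fitted log2 fold change of 1.45 ± 1.02 (adjusted p = 0.432, edgeR) became -0.33 without circulating replicate 1. Ccl12, also a monocyte attractant, was counted 6, 149 and 7 times in the circulating libraries, against 2, 3 and 7 times in the muscle libraries. Its signal was thus that of circulating replicate 2, at 19.8 CPM.

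Ccl11, the eotaxin that draws eosinophils through Ccr3, did not separate the groups in CPM. It was at 341, 154 and 442 CPM in the circulating libraries, against 600.5, 323 and 588 CPM in the muscle libraries. Circulating replicates 1 and 3 lay between muscle replicate 2 and the other muscle libraries. Its log2 fold change was -0.69 ± 0.43 (adjusted p = 0.387, edgeR), or 0.02 with scaling on abundant genes. Divided by the background of each library, per kilobase of exon, it was lower in every circulating library, at 665, 299 and 1001, against 2138, 1135 and 2568 in the muscle libraries. Its share of the ligand counts was 14.2%, 10.5% and 39.2% in the circulating libraries, against 12.1%, 8.34% and 13.4% in the muscle libraries, so that circulating replicate 3 stood apart. The other eotaxins, Ccl24 and Ccl26, were at most 1.86 CPM in circulating and 0.457 CPM in muscle libraries. Ccl2, Ccl7, Ccl11, Ccl12, Ccl8 and Ccl1 are consecutive genes in that order on chromosome 11 in the GRCm38 annotation, and their values went different ways along it.

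**Figure D2:**
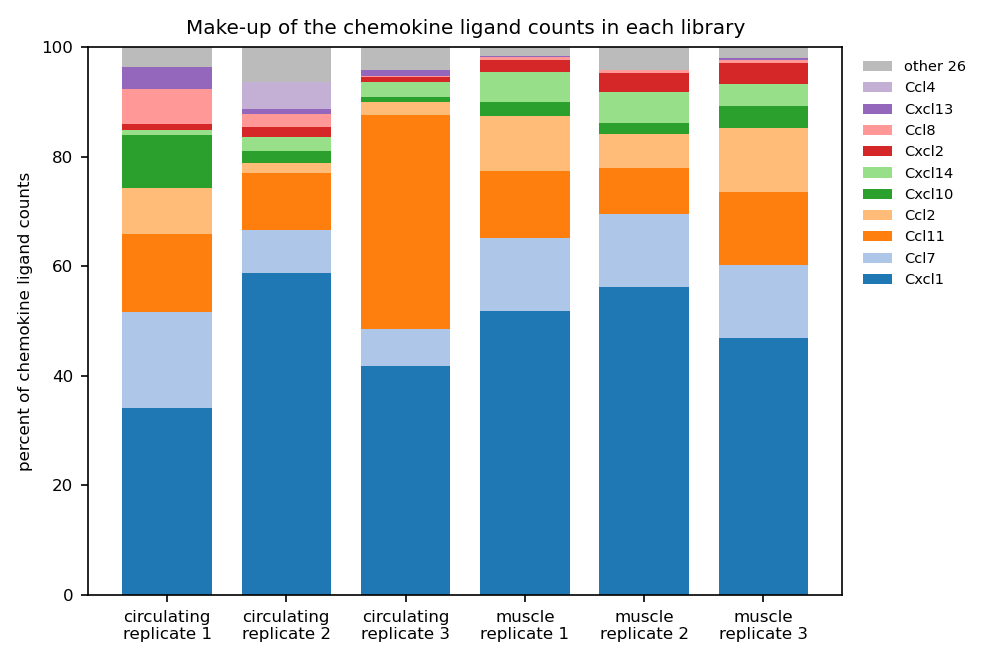
Make-up of the ligand counts of each library, as a percent of all counts of the 36 ligands in that library on the y axis, with circulating libraries left of muscle libraries. The 3 muscle bars resemble each other, while Ccl11 takes 39.2% in circulating replicate 3, Cxcl10 9.65% and Ccl8 6.30% in circulating replicate 1, and Ccl4 4.94% in circulating replicate 2.

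Of the 19 ligands of at least 5 CPM in either group, counting Ccl27a and Ccl27b as 2, the highest circulating library was replicate 1 for 9, replicate 2 for 7 and replicate 3 for 3. The neutrophil attractants together held 35.3%, 60.9% and 42.9% of the ligand counts in the circulating libraries, against 54.0%, 60.3% and 51.1% in the muscle libraries. The monocyte attractants held 32.3%, 13.4% and 9.48% in the circulating libraries, against 24.1%, 19.9% and 25.2% in the muscle libraries. Both shares overlapped between the groups.

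Of the Cxcr3 ligands, which attract T and NK cells and are induced by interferon, Cxcl9 separated the groups and Cxcl10 did not. Cxcl9 was at 12.7, 8.78 and 4.61 CPM in the circulating libraries, against 45.7, 42.3 and 41.8 CPM in the muscle libraries. The 3 muscle libraries were nearly equal, within 1.09-fold. Its fitted log2 fold change was -2.31 ± 0.64 (adjusted p = 0.154 in edgeR, 0.000537 in DESeq2).

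Cxcl10 was at 231, 32.7 and 8.46 CPM in the circulating libraries, against 128, 81.8 and 176 CPM in the muscle libraries. Circulating replicate 1 exceeded every muscle library and the other circulating libraries lay below all of them. Its log2 fold change of -0.50 ± 0.92 (adjusted p = 0.769, edgeR) was -2.71 ± 0.71 without circulating replicate 1 (adjusted p = 0.145, edgeR) and 0.10 with scaling on abundant genes. Part of the Cxcl10 exons, 133 of 2252 bases in the GENCODE M21 annotation, overlaps Art3 on the other strand, and the sources do not say whether reads were counted by strand.

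Of the ligands that cells can carry on their surface, Cxcl16, the ligand of Cxcr6, was at 4.60, 6.39 and 6.92 CPM in the circulating libraries, against 16.4, 20.05 and 11.1 CPM in the muscle libraries. The groups did not overlap (-1.41 ± 0.63, adjusted p = 0.255 in edgeR, 0.0382 in DESeq2). Of its exons, 552 of 3021 bases overlap Zmynd15 on the other strand. Cx3cl1, the fractalkine that binds Cx3cr1, was at 0.769 to 1.02 CPM in circulating libraries, against 0.418, 0.558 and 5.67 CPM in the muscle libraries. In muscle replicate 3 it was 6.82 times the background of stray reads, and in the other 5 libraries 0.410 to 0.549 times.

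Among the homeostatic ligands other than Cxcl14, Cxcl13, which guides B cells through Cxcr5, was at 98.4, 11.4 and 12.3 CPM in the circulating libraries, against 6.75, 2.13 and 15.3 CPM in the muscle libraries. Circulating replicate 1 stood above all other libraries, and muscle replicate 3 above the other circulating ones. Its fitted log2 fold change of 2.34 ± 1.03 (adjusted p = 0.250, edgeR) was 0.49 without circulating replicate 1. Ccl25, a thymic and gut ligand of Ccr9, was at 19.0, 5.86 and 4.50 CPM in the circulating libraries, against 2.99, 3.25 and 7.33 CPM in the muscle libraries (1.11 ± 0.75, adjusted p = 0.413, edgeR). Its exon model overlaps Elavl1 on the other strand over 204 of 7445 bases. Ccl27a and Ccl27b, near-identical copies of a skin-homing ligand, had the same 6 counts, so the same reads stand under both. These were 168, 7 and 9 reads in the circulating libraries, against 0, 513 and 64 reads in the muscle libraries, and 1 library of each group held most of them.

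Ccl28, a mucosal ligand of Ccr10 and Ccr3, was at 5.91, 6.25 and 3.84 CPM in the circulating libraries, against 0.956, 2.44 and 1.81 CPM in the muscle libraries. Each circulating library was higher, but relative to the background of stray reads for its exon length the levels were 1.94 to 2.71 in circulating and 0.760 to 1.91 in muscle libraries. The fitted log2 fold change was 1.61 ± 0.57 (adjusted p = 0.198, edgeR). Cxcl17, Ccl19 and Ccl21a were at most 1.33 CPM in any library. Ccl21b and Ccl21d, near-identical copies of Ccl21a, had no read in any library. For counting error alone this allows up to 0.399 CPM in circulating and 0.179 CPM in muscle libraries. How reads shared by the copies were counted is not given in the sources used here.

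The 5 CC ligands that myeloid and lymphoid cells make summed to 8.90, 100.2 and 16.1 CPM in the circulating libraries, against 4.12, 15.99 and 4.69 CPM in the muscle libraries. Circulating replicate 2 stood apart through Ccl4, which was at 72.5 CPM there. Ccl4, which activated myeloid cells make, was counted 11, 545 and 4 times in the circulating libraries, against 4, 8 and 0 times in the muscle libraries. Ccl3, its neighbour on the chromosome, was counted 6, 65 and 3 times, against 6, 0 and 0 times. Circulating replicate 2 thus held most reads of both genes and of Ccl12, and the filter on low counts left the 3 genes untested. Of the 8 monocyte and macrophage markers, 5 were highest among circulating libraries in replicate 2, 2 in replicate 3 and 1 in replicate 1. In replicate 2 the macrophage receptor gene Csf1r was at 32.3 CPM, against 8.54 and 3.84 CPM in circulating replicates 1 and 3, and Cx3cr1, a receptor of monocytes and macrophages, was at 18.1 CPM, against 2.04 and 1.21 CPM. Cd14, a co-receptor for bacterial lipopolysaccharide, was at 3.36, 42.7 and 43.6 CPM in the circulating libraries, and the lysosomal gene Cd68 at 1.46, 9.85 and 23.9 CPM, both highest in replicate 3. The inflammatory cytokine Il1b, like Csf1r, Cx3cr1, Cd14 and Cd68 chosen after its values were seen, was at 14.9 CPM in circulating replicate 2 and at 1.31 and 0.659 CPM in circulating replicates 1 and 3. The part of other cells in these reads was not tested.

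Ccl6, a ligand of Ccr1 found in rodents and made by myeloid cells, was at 2.26, 4.52 and 9.33 CPM in the circulating libraries, against 0.956, 0.863 and 1.17 CPM in the muscle libraries. All circulating libraries were higher, circulating replicate 3 the most. Its log2 fold change was 2.41 ± 0.64 (adjusted p = 0.148 in edgeR, 0.0255 in DESeq2). The monocyte and macrophage markers had a median log2 fold change of 1.51, against 0.15 for all genes. Of the 8 markers edgeR called none. At an unadjusted p under 0.05 there were 4 higher (9.71% of tested genes) and none lower (9.64%). DESeq2 called 3 higher, against 1.16% of all genes. Ccl5 was at 2.48, 8.52 and 1.43 CPM in the circulating libraries, against 0.956, 6.35 and 2.54 CPM in the muscle libraries, and Ccl9 at 2.92, 5.99 and 4.61 CPM, against 1.61, 8.38 and 0.978 CPM. For both, replicate 2 was the highest library of its group and the groups overlapped.

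**Figure D3:**
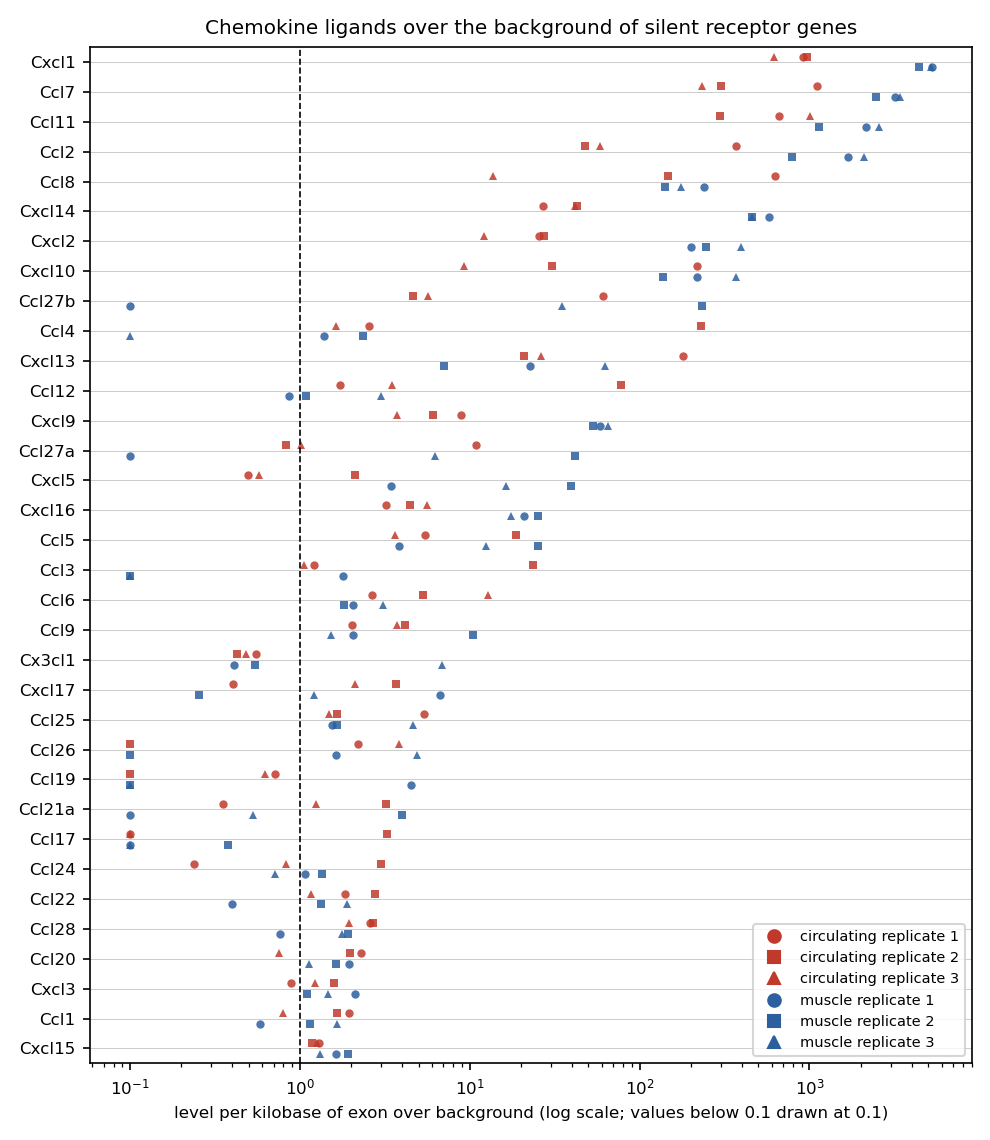
Level of the ligands with reads and an exon length, 1 symbol per library, per kilobase of exon and divided by the background of its library, on a log x axis; values under 0.1 are drawn at 0.1, the dashed line marks the background, red symbols are circulating and blue symbols muscle libraries. Cxcl1, Ccl7, Ccl11 and Ccl2 lie far above the line in all 6 libraries, and Cxcl15, Ccl1, Cxcl3 and Ccl20 lie around it.

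The T cell attractants Ccl1, Ccl17, Ccl20 and Ccl22 were at most 3.06 CPM in any library. Ccl22, a ligand of Ccr4, was at 2.04, 3.06 and 1.10 CPM in the circulating libraries, against 0.239, 0.812 and 0.929 CPM in the muscle libraries, without overlap, but at 1.16 to 2.76 and 0.396 to 1.89 times the background of its library. With every level divided by the background of its library, 10 of the 25 tested ligands lay lower in all circulating libraries, Ccl11 and Cxcl5 now among them, against 29.5% of tested genes with an exon length, and 1 ligand (Ccl28) lay higher, against 2.73%. Of the ligands with higher CPM in every circulating library, Ccl6, Ccl22 and Cxcl15 were no longer so on this scale. Cxcl15 counted among the 10 lower ligands only by a near tie close to the background. It was at 1.3037 in circulating replicate 1 (18 reads) and 1.3043 in muscle replicate 3 (12 reads). The background itself was higher in each circulating library than in each muscle library.

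**Figure D4:**
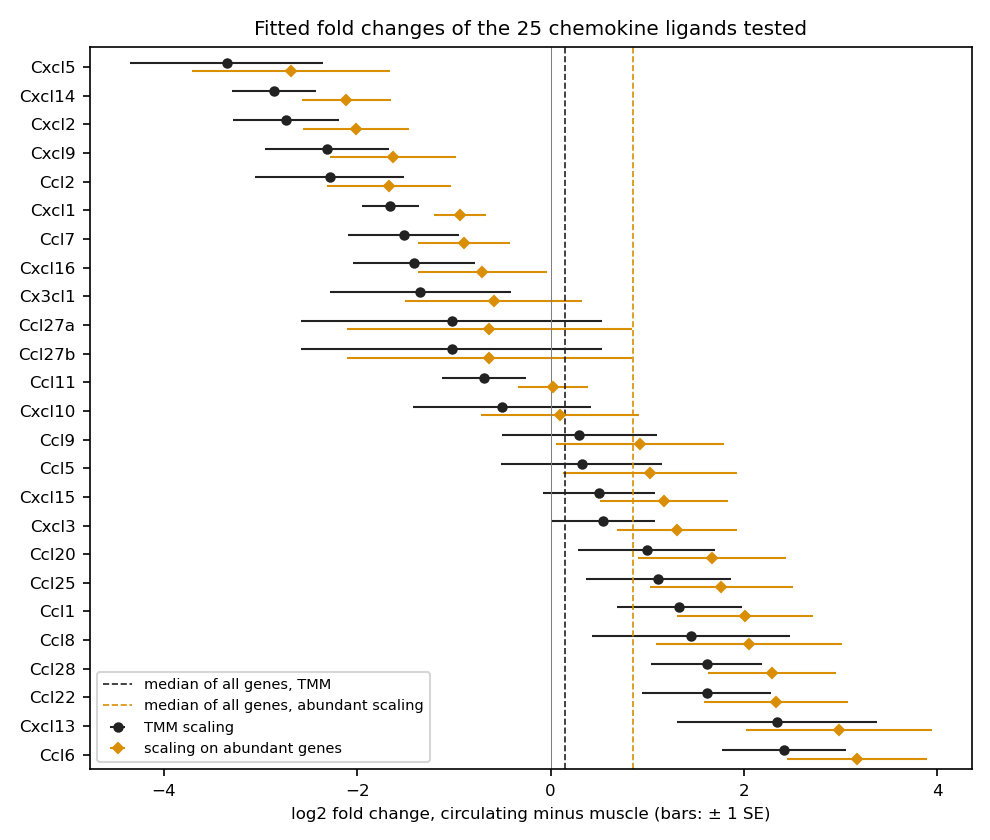
Fitted log2 fold changes of the 25 tested ligands, circulating minus muscle, with bars of 1 SE, under TMM scaling (black) and scaling on abundant genes (orange); dashed lines mark the median of all tested genes, 0.15 and 0.85. Cxcl14 lies at -2.86 and Ccl6 at 2.41 under TMM scaling, and Ccl11 and Cxcl10 cross 0 with the other scaling.

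**Figure D5:**
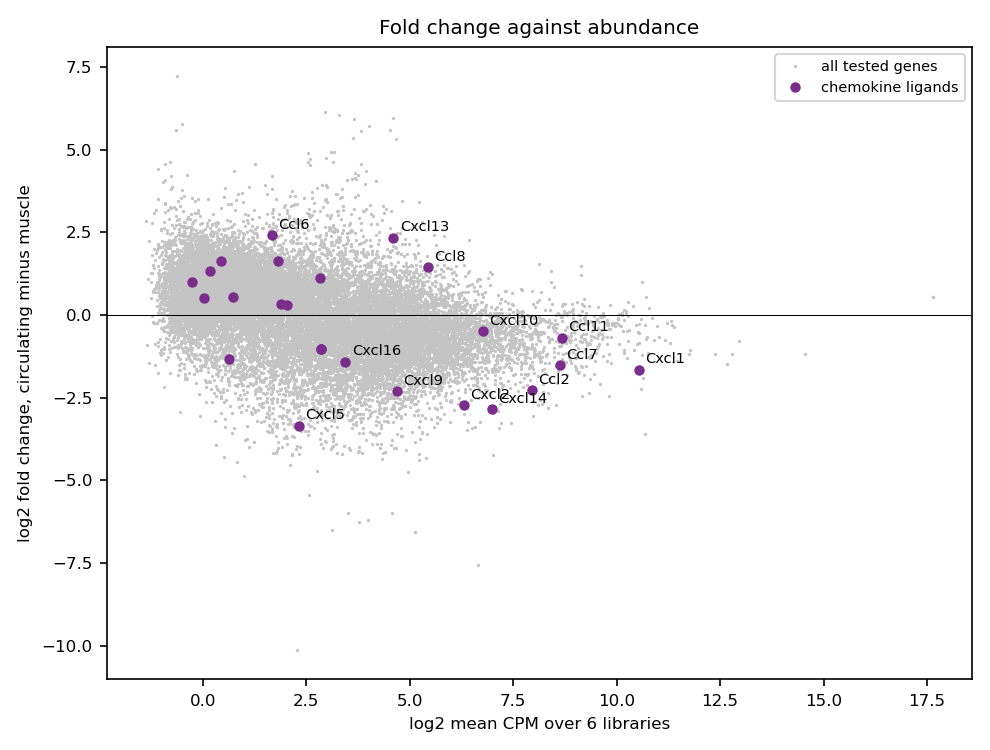
Log2 fold change, circulating minus muscle, against the log2 mean CPM of 6 libraries, for all 20248 tested genes (grey) and the ligands (purple, some named). The abundant ligands Cxcl14, Cxcl2 and Ccl2 lie at -2.86, -2.74 and -2.29, and Ccl8 and Cxcl13 lie at 1.45 and 2.34.

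Of 24 chemokine receptors and scavengers 20 were tested and edgeR called none (0.109% of tested genes). At an unadjusted p under 0.05 there were 4 higher (9.71% of tested genes) and none lower (9.64%). DESeq2 called 1 higher (Cx3cr1), against 1.16% of all genes. The 20 tested genes had a median log2 fold change of 0.48, against 0.15 for all genes. Ackr3 and Ackr1, the most abundant, are scavengers, which bind chemokines without classical signalling. Ackr3 was at 561, 646 and 418 CPM in the circulating libraries, against 532, 381 and 369 CPM in the muscle libraries (0.34 ± 0.32, adjusted p = 0.552, edgeR). Ackr1, which binds many inflammatory ligands of both families, was at 109, 73.3 and 185 CPM in the circulating libraries, against 109, 65.3 and 63.9 CPM in the muscle libraries (0.62 ± 0.49, adjusted p = 0.477, edgeR). Cmklr1, the chemerin receptor, averaged 18.3 ± 1.69 CPM in circulating FAPs, against 37.9 ± 12.4 CPM in muscle FAPs (-1.05 ± 0.58, adjusted p = 0.329, edgeR; SD, n = 3 each). Of 4 chemokines outside the naming rule 2 were tested and edgeR called none. At an unadjusted p under 0.05 there was 1 lower (9.64% of tested genes), which DESeq2 called lower (10.3% of all genes). That gene, Cklf, was at 1.31, 2.53 and 1.10 CPM in the circulating libraries, against 1.31, 3.71 and 46.9 CPM in the muscle libraries, and muscle replicate 3 alone was high. The platelet gene Pf4 was at 23.3, 2.13 and 0 CPM in the circulating libraries, against 2.75, 2.94 and 0 CPM in the muscle libraries.

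Of 30 NF-kappaB genes, inducing cytokines and their receptors, which induce or limit inflammatory ligands, 27 were tested and 20 had a negative fold change, against 45.5% of tested genes. In edgeR none was called, with 6 lower (9.64% of tested genes) and 1 higher (9.71%) at an unadjusted p under 0.05. DESeq2 called 4 lower (10.3% of all genes) and none higher (1.16%). The 27 tested genes had a median log2 fold change of -0.58, against 0.15 for all tested genes. With scaling on abundant genes the medians were 0.13 and 0.85. All genes of at least 20 CPM had -0.65, but the 27 include genes below that level. Nfkb1, the precursor of the DNA-binding subunit that pairs with Rela, was at 80.4, 81.4 and 68.1 CPM in the circulating libraries, against 405, 261 and 383 CPM in the muscle libraries (-2.19 ± 0.37, adjusted p = 0.0622 in edgeR, 0.000111 in DESeq2). Nfkbia, the inhibitor that NF-kappaB induces, averaged 537 ± 75.7 CPM in circulating FAPs, against 984 ± 114 CPM in muscle FAPs (-0.87 ± 0.28, adjusted p = 0.178, edgeR). The interferon genes were 10, with none called in edgeR. At an unadjusted p under 0.05 there were 2 lower (9.64% of tested genes) and none higher (9.71%). DESeq2 called 2 lower, against 10.3% of all genes. The 2 were Ifit3 and Ifit1, antiviral genes that interferon induces, which are described because of that call. Ifit3 was at 2.85, 6.52 and 2.31 CPM in the circulating libraries, against 79.5, 61.3 and 73.9 CPM in the muscle libraries (-4.21 ± 0.67, adjusted p = 0.0606 in edgeR, 2.4e-10 in DESeq2). Ifit1 was at 26.9, 12.5 and 31.5 CPM in the circulating libraries, against 59.1, 80.4 and 124 CPM in the muscle libraries (-1.89 ± 0.57, adjusted p = 0.173 in edgeR, 0.0107 in DESeq2). Neither gene overlapped between the groups. Irf1, an interferon-induced activator, was at 268, 157 and 307 CPM in the circulating libraries, against 306, 308 and 425 CPM in the muscle libraries, and the groups overlapped. Stat2, which carries type I interferon signals to the nucleus, was at 273, 14.0 and 115 CPM in the circulating libraries, against 124, 147 and 116 CPM in the muscle libraries. Gbp2, an interferon-induced GTPase, was at 62.4, 16.1 and 65.2 CPM in the circulating libraries, against 79.9, 65.3 and 125 CPM in the muscle libraries, just without overlap (-0.91 ± 0.60, adjusted p = 0.408, edgeR).

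Of 11 genes that present, cleave or destabilise chemokines or their transcripts 10 were tested and edgeR called none. At an unadjusted p under 0.05 there were 5 lower (9.64% of tested genes) and 1 higher (9.71%). DESeq2 called 3 lower (10.3% of all genes) and 1 higher (1.16%). Zfp36, which promotes decay of inflammatory transcripts, averaged 371 ± 76.7 CPM in circulating FAPs, against 891 ± 98.3 CPM in muscle FAPs (-1.26 ± 0.30, adjusted p = 0.127 in edgeR, 0.0281 in DESeq2). Tnfaip6, a secreted protein that binds chemokines, averaged 479 ± 78.9 CPM in circulating FAPs, against 1141 ± 277 CPM in muscle FAPs (-1.25 ± 0.30, adjusted p = 0.130 in edgeR, 0.0405 in DESeq2). Zfp36l1, a relative of Zfp36, averaged 286 ± 113 CPM in circulating FAPs, against 631 ± 164 CPM in muscle FAPs (-1.14 ± 0.37, adjusted p = 0.1804, edgeR; SD, n = 3 for these means). Dpp4, the peptidase that trims the amino end of several chemokines, chosen after its values were seen, was higher in every circulating library, at 177, 180.5 and 69.1 CPM in the circulating libraries, against 28.9, 37.0 and 23.0 CPM in the muscle libraries (2.26 ± 0.53, adjusted p = 0.127 in edgeR, 0.00624 in DESeq2).

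Genes that cells switch on during dissociation and handling had a median log2 fold change of -0.74, against 0.15 for all tested genes. With scaling on abundant genes the medians were -0.02 and 0.85. All genes of at least 20 CPM had -0.65 with TMM scaling, near the value of this list, whose 19 genes all averaged above 20 CPM in both groups. Their sum was 6936, 6977 and 7522 CPM in the circulating libraries, against 14636, 11472 and 13685 CPM in the muscle libraries. Of 19 genes 1 was called lower in edgeR (Fosb, -2.10 ± 0.29, adjusted p = 0.0341) and 5 in DESeq2, against 0.104% and 10.3% of all genes, and none was called in edgeR with scaling on abundant genes. In 12 of the 19 every circulating library lay below every muscle library, against 11.4% of tested genes, while Jund and Egr2 were at 0.03 and 0.05 on the log2 scale. That share was not computed for genes of at least 20 CPM alone. Cxcl1, Cxcl2, Ccl2 and Ccl7 can be induced under the same conditions, and the part of handling in their levels was not tested.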

How the data were processed

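The authors deposited 1 table of raw read counts per gene symbol for the 6 libraries. The tools named in the submitters' processing notes are Trim Galore, STAR and featureCounts, and the build is GRCm39; versions, options, strand setting and annotation are not given in the sources used here. Per the labels' protocols, a TruePrep DNA kit was used for library preparation. The ligands, lists and tests were chosen with earlier results of these data known. Named ligands have a mean of at least 5 CPM in either group; from each list the genes called in edgeR, or else the 3 most abundant, are described, and other genes were chosen after their values were seen.

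The whole table was fitted with edgeR 4.0.16 in R 4.3.3 (robust quasi-likelihood F test, TMM scaling, default filterByExpr, no covariate), which tested 20248 genes, with Benjamini-Hochberg adjustment over all of them. A standard error is the fold change over the root of its F. DESeq2 1.42.0 was the other tool. The fit was tested on simulated data, where it missed many true changes, so a gene that edgeR did not call may still differ. Exon lengths (GENCODE M21, GRCm38) and RefSeq promoters (GRCm38.p6) were matched by symbol; the background is the median of 559 vomeronasal, taste and trace amine receptor genes. Replicates of a group differed far beyond sampling noise, with a chi-square per degree of freedom of 56.1 to 85.4.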

Additional observations from a re-analysis of the deposited data

How the results depend on the processing

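The count of 1 ligand called (Cxcl14, in edgeR) was 1 with TMMwsp scaling and with 18S rows left out, 2 with RLE size factors, 3 without a filter on low counts, 8 with DESeq2, and 0 with upper quartile scaling, with library size only, with scaling on abundant genes, with a filter of 10 CPM on average and without the robust fit. Leaving out each library in turn gave 0 to 4 ligands: 4 without circulating replicate 1 and 0 without circulating replicate 2, circulating replicate 3 or any muscle replicate. Of all genes, 22 were called, 43 with RLE size factors, 160 without a filter, 1543 with DESeq2, 2 with upper quartile scaling, 7 with scaling on abundant genes, and 0 to 65 with each library left out. The median log2 fold change of the ligands was 0.24 without a filter, 0.30 with DESeq2, and -0.45 to 0.64 with each library left out. The 11 ligands without overlap became 6 with the filter of 10 CPM, which tests fewer ligands, and 11 to 16 with a library left out. A group with a library left out lies apart from the other more easily, and the filter was rerun each time. Shares of all genes were not computed for these settings, so these counts are not a result about the ligands. Cxcl14 stayed below 0 in all 17 alternatives. Directions turned for Ccl11 (0.0025 with upper quartile scaling and 0.025 with scaling on abundant genes), for Cxcl10 (0.12, 0.10 and, with the filter of 10 CPM, 0.10), and, with each library left out, for Ccl8 (-0.33 without circulating replicate 1, to 1.88) and for Ccl27a and Ccl27b (-3.38 to 1.55, 1.55 being without muscle replicate 2).

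The groups share replicate numbers, which no label ties to a mouse; same-numbered libraries' deviations correlated at 0.0095, 0.0553 and 0.007. With the replicate block 0 ligands and 1 gene passed. The cause of these changes was not tested. Circulating libraries held 10275 to 32815 ligand counts and muscle libraries 76185 to 89415, which limits the scarce ligands.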
